A study of Mus musculus with 16 samples.

Results

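The comparison described here is that of KL cells, Lin-c-Kit+Sca-1- progenitors sorted from bone marrow, labelled Camkk2 null against KL cells labelled WT. Its members are the 4 arrays titled KL KO and the 4 titled KL WT, 8 of the 16 arrays of the study, and they were compared over 30176 genes. The other 8 arrays come from KSL cells, the Lin-c-Kit+Sca-1+ fraction that holds the stem cells, under the same labels. Each genotype was represented by 16 mice and 4 biological replicates, so an array may stand for pooled mice, and no treatment is named in the labels. The age, sex and strain of the mice and the part of Camkk2 that was deleted are not given in the sources used here. All signals below are log2 values made by RMA, a method that corrects the background of an array, brings arrays to a common distribution and summarizes the probes of a gene.

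KL cells are progenitors that have largely left the stem cell state and give rise to red cells, megakaryocytes, granulocytes, monocytes and mast cells. CaMKK2 is a calcium- and calmodulin-dependent kinase that switches on CaMKI, CaMKIV and the energy sensor AMPK. Stem cells, which are mostly quiescent, keep a set of transcription factors and surface proteins that fall as cells commit, whereas committed cells take up the programs of hemoglobin synthesis or of granule formation. The comparison asks how the transcripts of these programs differed with the genotype label on the arrays titled KL.

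Camkk2, the targeted gene, did not follow the label. Its signal was 7.83, 7.82, 7.08 and 7.12 on KL arrays 1 to 4 labelled Camkk2 null, against 7.86, 7.81, 6.89 and 7.48 on those labelled WT. The labels overlapped, and arrays 1 and 2 were above arrays 3 and 4 under both. The same step was seen on KSL arrays 1 to 4. They were at 7.82, 7.93, 7.14 and 7.14 under the null label and 7.98, 8.02, 7.11 and 7.45 under the WT label. The signals of the gates overlapped as well, so Camkk2 followed neither the genotype label nor the gate label. The log2 change in KL, null label minus WT label, was -0.05 (SE 0.24, adjusted p = 0.923 from limma). It lay between -0.25 and 0.08 when each array was left out in turn. The gene has 1 probe set, and whether it reads the deleted part is not known. Of the 50 genes nearest to Camkk2 on its chromosome, 25 on each side, 0 passed the thresholds given below, and of the nearest 200 genes 6 did (3%), against 3.99% of all genes. By the adjusted p alone 18% of the nearest 50 and 19% of the nearest 200 passed, against 15.8% of all genes. Every direction below therefore rests on the label of an array, and the arrays are called by their labels throughout.

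The arrays also stood apart by label more than by gate. Across genes, an array of KL labelled null correlated with one of KSL labelled null at 0.994 to 0.997, and with one of KL labelled WT at 0.987 to 0.99. KL and KSL arrays labelled WT correlated at 0.994 to 0.996. Under the null label, stem cell surface and secreted genes averaged 7.12 to 7.25 in KL and 6.81 to 6.89 in KSL. Under the WT label they averaged 8.01 to 8.16 in KL and 7.80 to 8.13 in KSL. These genes were thus not lower on average in KL than in KSL of the same label. The list also holds genes that the gate on Sca-1 need not separate, such as Kit, which both gates use. Stem cell transcription factors averaged 7.43 to 7.50 in KL and 7.36 to 7.44 in KSL under the WT label. Under the null label they averaged 6.87 to 7.01 in KL and 6.78 to 6.84 in KSL. Genes of red cells were lower in KL than in KSL, at 6.63 to 6.85 against 6.91 to 7.08 under the WT label. Under the null label they were at 7.89 to 8.22 against 8.29 to 8.44. The gates read surface protein, and Ly6a, which encodes Sca-1, is not analysed here. An effect of genotype and an exchange of the gate and genotype labels cannot be told apart on these arrays.

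Kit, the receptor used in the gate, was present on every array, at 9.66, 9.70, 9.57 and 9.78 under the null label and 10.46, 10.20, 10.29 and 10.32 under the WT label (log2 change -0.64, SE 0.067, adjusted p = 0.000182 from limma). The labels did not overlap. Transcripts of the lineage markers Cd3e of T cells and Ly6g of neutrophils, which the sort removes, lay between 5.40 and 6.21 on all 8 arrays. Their log2 changes were 0.05 and -0.11 (adjusted p = 0.662 and 0.444 from limma). Itgam of myeloid cells was at 6.72, 6.65, 6.44 and 6.31 under the null label and 6.95, 7.08, 7.18 and 6.94 under the WT label. It was lower under the null label without overlap (log2 change -0.51, SE 0.095, adjusted p = 0.00524 from limma), under the fold minimum. Xist, the transcript of the inactive X chromosome, averaged 10.33 ± 0.12 under the null label and 10.89 ± 0.10 under the WT label (SD, n = 4 each). Its change of -0.57 had an adjusted p of 0.000717 in limma and was under the fold minimum. It passed that minimum without WT array 1 (-0.61, adjusted p = 0.000766) or null array 2 (-0.60, adjusted p = 0.00179). Kdm5d, a gene of the Y chromosome, lay between 5.15 and 5.81 on all 8 arrays (log2 change -0.17, SE 0.12, adjusted p = 0.414 from limma). The cause of the Xist difference was not tested.

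A gene was called where its adjusted p from limma was under 0.05 and its fold at least 1.5. Here and below, signed values in brackets or after "changed by" are log2 changes, null label minus WT label, with the SE and the adjusted p from limma where given. Under the null label 385 genes were called higher (1.28% of 30176) and 820 lower (2.72%), together 3.99% of all genes, so that 68% of the calls were decreases. Changes over 4-fold were found for 24 higher and 46 lower genes. The median change of all genes was 0.03. Without the fold minimum 4774 genes passed (15.8%), 2151 of them higher (7.13%) and 2623 lower (8.69%). On the first principal component of the 8 arrays, which carried 61.8% of the variance, the null label lay at 22.2 to 26.2 and the WT label at -26.7 to -21.4. No detection call was used, so a low signal is not shown to be above background and the size of a change that ends there is uncertain. Of the 1205 called genes, 265 had a mean under 1 label below 5.85, the lowest array median over the genes. Of the 125 called genes named here 16 did, among them S100a8 (4.68), Ndn (4.81), Jchain (5.11), Mecom (5.03) and Il7r (4.43). The means of Il7r and Mecom were below 5.85 under both labels. The p-values from limma set the difference between the labels against the spread of 4 arrays a label, and that number limits their precision. An array may stand for pooled mice, so this spread need not be that between mice. In sorted bulk cells, more cells of a type and more RNA per cell cannot be told apart.

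**Figure D1:**
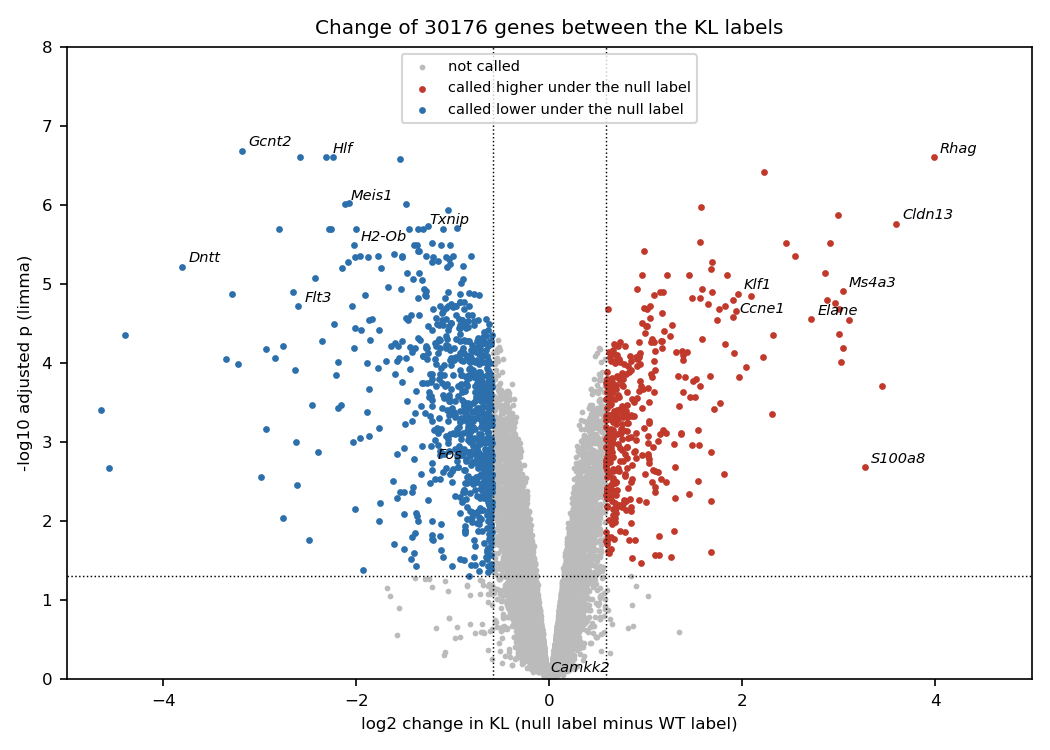
Change of 30176 genes in KL, as log2 change (x axis, null label minus WT label) against -log10 of the adjusted p from limma (y axis), with called genes in colour and dotted lines at the thresholds. Red cell and granule genes lie far to the right, lymphoid and stem cell genes far to the left, and Camkk2 lies near 0 at -0.05.

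Many of the largest increases fell on red cell genes. Of 29 measured genes of the red cell membrane, globins and red cell enzymes, 18 were called higher and 0 lower, with a median change of 0.70, against 1.28% called higher and a median of 0.03 over all genes. Rhag, which partners the Rh proteins on red cells, had a signal of 9.86, 10.15, 10.30 and 10.05 on the arrays labelled null, against 5.86, 5.98, 6.38 and 6.21 on those labelled WT. Every null array was over 3 log2 units above every WT array, and the change was 3.98 (SE 0.12, adjusted p = 2.49e-07). Rhd, the mouse Rh blood group gene, was at 8.89, 9.43, 9.62 and 9.33 under the null label and 6.70, 6.90, 6.80 and 6.65 under the WT label, again without overlap (2.55, SE 0.14, adjusted p = 4.4e-06). Kel, the Kell blood group protease, changed by 2.09 and Aqp1, the water channel of red cells, by 2.88. Cldn13, a claudin that mouse erythroid cells express, was at 9.07, 9.79, 9.88 and 9.45 under the null label, against 5.85, 6.01, 6.03 and 5.93 under the WT label (3.59, SE 0.15, adjusted p = 1.72e-06). Car1, a carbonic anhydrase of red cells, was among the brightest genes of the group under the null label, at 12.71, 12.84, 13.14 and 13.03, and was spread more widely under the WT label, at 9.0, 9.75, 10.43 and 10.44 (3.02, SE 0.28, adjusted p = 9.81e-05). Ermap, an erythroid membrane protein of the immunoglobulin superfamily, changed by 3.0 (SE 0.21, adjusted p = 2.1e-05), and the amino acid transporter Slc38a5 and Nxpe2 by 2.91 and 2.96. The remaining 11 measured genes of the list were not called, and 10 listed genes, the adult globins among them, are not analysed here.

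Erythroid regulators had a smaller median change than the genes of the red cell membrane, a gap that was not tested. Of 19 measured erythroid transcription factors and Epor, 5 were called higher (26.3%, against 1.28% of all genes) and 0 lower (median 0.08). By the adjusted p alone 6 were higher and 3 lower, namely Nfe2 (-0.47), Foxo3 (-0.37) and Lmo2 (-0.33). Epor, the erythropoietin receptor that keeps erythroid progenitors alive, was at 8.71, 9.01, 9.20 and 9.10 under the null label, against 7.33, 7.35, 7.55 and 7.55 under the WT label (1.56, SE 0.1, adjusted p = 1.52e-05). Klf1, the Krüppel-like factor of red cells, was at 8.34, 8.45, 8.89 and 8.36 under the null label and 6.33, 6.71, 6.62 and 6.57 under the WT label, which differed by 1.95 (SE 0.13, adjusted p = 1.32e-05). The labels did not overlap in either gene. Gfi1b, a repressor of erythroid and megakaryocyte cells, changed by 1.01, the cell cycle factor E2f4 by 1.03 and Gata1, the leading erythroid transcription factor, by 0.68 (SE 0.063, adjusted p = 9.47e-05). Gata2, the GATA factor of stem and early progenitor cells, was at -0.11 (SE 0.063, adjusted p = 0.278). Heme synthesis and iron uptake lay between these groups, with 11 of 23 measured genes called higher (47.8%), 0 lower and a median of 0.51. Cpox, an enzyme of heme synthesis, was at 9.18, 9.72, 9.68 and 9.41 under the null label, against 7.42, 7.82, 7.63 and 7.53 under the WT label (1.90, SE 0.13, adjusted p = 1.6e-05). Tfrc, the transferrin receptor, changed by 1.25, the iron transporter Slc11a2 by 1.19 and Alas1, the housekeeping first enzyme of heme synthesis, by 1.10. Alas2 of the same list was not called (0.06, SE 0.043, adjusted p = 0.412). Its mean was 5.51 under the null label and 5.45 under the WT label. Epor, Klf1, Gfi1b and Gata1 were marked by the study on its plot of KSL arrays, whose labels the KL arrays share, so their direction is no independent choice.

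Because the called genes of these groups were all higher, their promoters were examined. The RefSeq promoter windows (GRCm38.p6, 250 bases before to 50 after the start) were searched on both strands for a GATA motif, AGATAA. Of the 34 called genes of the erythroid lists, 27 had a window, and 7 of these held the motif (25.9%), among them Rhd, Epor, Kel and Cpox. The motif was in 11.4% of all 27025 windows and in 10.1% of the 17972 windows of tested genes. The Krüppel-like factor motif CCACACCC was in 1 of the 27 (3.7%), against 3.57% of all windows. The windows of Rhd (chr4:134864286-134864585, plus strand, motif starting at base -43 from the start site) and Epor (chr9:21963527-21963826, minus strand, motif starting at -54) are shown because these genes were among the called genes with the motif, in capitals. In Epor it stands as its reverse complement.
Rhd: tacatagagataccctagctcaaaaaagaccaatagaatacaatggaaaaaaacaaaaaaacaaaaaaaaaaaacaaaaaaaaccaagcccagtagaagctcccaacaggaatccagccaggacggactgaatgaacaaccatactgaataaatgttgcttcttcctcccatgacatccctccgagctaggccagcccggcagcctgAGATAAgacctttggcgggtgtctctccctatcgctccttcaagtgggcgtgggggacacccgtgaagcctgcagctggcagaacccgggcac
Epor: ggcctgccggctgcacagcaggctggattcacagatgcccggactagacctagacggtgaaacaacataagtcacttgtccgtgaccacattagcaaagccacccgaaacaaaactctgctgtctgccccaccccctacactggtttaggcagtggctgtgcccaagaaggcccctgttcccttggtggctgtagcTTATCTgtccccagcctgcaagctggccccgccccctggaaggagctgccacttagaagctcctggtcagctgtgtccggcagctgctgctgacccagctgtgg
A match describes the letters only, and no binding was measured.

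Genes of neutrophil granules were also higher, with exceptions. Of 23 measured genes, 11 were called higher (47.8%) and 3 lower (13%), against 1.28% and 2.72% of all genes, with a median of 0.48. Elane, neutrophil elastase, was at 12.79, 12.88, 12.53 and 12.53 on the arrays labelled null, against 9.43, 10.45, 10.25 and 9.75 on those labelled WT, without overlap (2.71, SE 0.2, adjusted p = 2.81e-05). Ms4a3, a membrane protein of granulocyte-monocyte progenitors that was marked in the study's plot, was at 12.87, 12.79, 12.44 and 12.28 under the null label, against 9.09, 10.04, 9.59 and 9.51 under the WT label (3.04, SE 0.19, adjusted p = 1.24e-05). The granule serine proteases Ctsg and Prtn3 changed by 1.56 and 1.31, and Mpo, myeloperoxidase, by 1.05, with signals of 13.02 to 13.42 under the null label and none above 12.36 under the WT label. S100a8, a calcium-binding protein of neutrophils, separated the arrays within the null label, with 8.91, 9.09, 6.83 and 6.97 on arrays 1 to 4, against 3.99, 4.86, 5.07 and 4.79 under the WT label (3.27, SE 0.52, adjusted p = 0.00205). Arrays 1 and 2 labelled null were about as far above arrays 3 and 4 as these were above the WT label. The acute-phase protein Hp showed a smaller step of that kind, at 10.06, 10.22, 9.39 and 9.35 under the null label and 7.44, 7.43, 7.56 and 7.30 under the WT label (2.32). The 3 lower genes were the lysozymes Lyz2 (-1.32, SE 0.08, adjusted p = 8.81e-06) and Lyz1 (-0.99) and Padi4, which citrullinates histones (-0.92).

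The PU.1 motif GAGGAA, on either strand, was in 28.3% of all promoter windows and in 27.4% of those of tested genes. Of the 11 granule genes called higher, 9 had a window and 7 of these held it (77.8%), among them Elane, Ms4a3, Mpo, Ctsg and Prtn3. It was in 8 of the 27 windows of called erythroid genes (29.6%) and in 12 of 27 of the stem cell and lymphoid genes called lower (44.4%). The windows of Elane (chr10:79886062-79886361, plus strand, motif starting at -85) and Ms4a3 (chr19:11640802-11641101, minus strand, motif starting at 35) are shown because these granule genes had the largest changes after S100a8, with the motif in capitals.
Elane: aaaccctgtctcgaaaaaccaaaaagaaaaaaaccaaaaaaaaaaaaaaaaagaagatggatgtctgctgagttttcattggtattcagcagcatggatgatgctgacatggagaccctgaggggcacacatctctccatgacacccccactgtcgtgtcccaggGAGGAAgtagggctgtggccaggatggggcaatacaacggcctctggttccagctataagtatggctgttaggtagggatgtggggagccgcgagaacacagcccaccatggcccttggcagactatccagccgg
Ms4a3: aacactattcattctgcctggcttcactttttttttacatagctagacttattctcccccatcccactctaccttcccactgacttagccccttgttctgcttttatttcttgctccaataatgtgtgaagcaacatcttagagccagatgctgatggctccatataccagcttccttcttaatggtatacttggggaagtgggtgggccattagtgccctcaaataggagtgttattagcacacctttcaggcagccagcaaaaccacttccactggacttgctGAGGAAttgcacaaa
The share rests on 9 windows, and occupancy by PU.1 was not measured.

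Monocyte and receptor genes moved in both directions. Of 24 measured myeloid transcription factors and receptors, 8 were called higher (33.3%) and 2 lower (8.33%), with a median of 0.22. Over all genes 1.28% were called higher and 2.72% lower. Ly6c2, a surface protein of monocytes and their progenitors, was at 12.45, 12.60, 12.02 and 11.66 under the null label, against 8.65, 9.60, 9.54 and 8.77 under the WT label (3.04, SE 0.26, adjusted p = 6.48e-05). Fcgr3, an IgG receptor used to gate granulocyte-monocyte progenitors, changed by 1.96, the clotting factor subunit F13a1 by 1.81 and Cebpe, the C/EBP factor of late granulopoiesis, by 1.38. Csf3r, the G-CSF receptor, changed by -1.04 (SE 0.11, adjusted p = 0.000254) and the sialic acid receptor Cd33 by -1.14. The increase of granule genes was thus not shared by the receptor that drives granulocyte output. Trem3, a myeloid receptor outside the lists that was chosen after its values were seen, was at 10.48, 10.58, 10.08 and 10.11 under the null label and 7.11, 7.79, 7.66 and 7.26 under the WT label (2.86).

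Mast cell, basophil and eosinophil genes were called higher for 6 of 22 measured genes and lower for 1, with a median of 0.03. The shares were 27.3% higher and 4.55% lower, against 1.28% and 2.72% of all genes. Hdc, which makes histamine, was at 8.38, 8.26, 7.92 and 7.78 under the null label, against 6.19, 6.37, 6.31 and 6.42 under the WT label, without overlap (1.76, SE 0.12, adjusted p = 2.06e-05). Prg3, an eosinophil granule protein, changed by 1.30 and Ms4a2, a subunit of the IgE receptor, by 0.93. Prg2, the eosinophil major basic protein, was at 11.37, 10.62, 10.01 and 9.92 under the null label and 8.12, 8.89, 8.23 and 9.97 under the WT label, and WT array 4 lay within the range of the null label (1.68, SE 0.43, adjusted p = 0.0249). Its call was lost without any of WT arrays 1, 2 and 3 and null arrays 1 and 2, with an adjusted p of 0.0538 to 0.0674 in limma. Slc18a2, which loads amines into granules, changed by -0.82.

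Lymphoid genes held the largest decreases. Of 24 measured genes of lymphoid priming, 10 were called lower and 0 higher, with a median of -0.30, against 2.72% called lower over all genes. Dntt, the terminal transferase that adds bases at antigen receptor joints, was at 6.76, 6.20, 6.19 and 6.19 on the arrays labelled null, against 10.53, 10.53, 9.70 and 9.78 on those labelled WT (-3.80, SE 0.22, adjusted p = 6.01e-06). Null array 1 stood above the other null arrays and still over 2 log2 units below every WT array. Flt3, the cytokine receptor of lymphoid-primed progenitors, showed the same order, at 7.32, 6.80, 6.72 and 6.72 under the null label and 9.89, 9.56, 9.07 and 9.44 under the WT label (-2.60, SE 0.18, adjusted p = 1.88e-05). Ltb, lymphotoxin beta, was at 6.97, 6.95, 6.92 and 7.01 under the null label, against 8.88, 9.37, 9.41 and 9.29 under the WT label (-2.28, SE 0.1, adjusted p = 1.99e-06). The immunoglobulin joining chain Jchain changed by -2.76, the chromatin organizer Satb1 by -1.22, the transcription factor Mef2c by -1.07 and Il7r, the interleukin-7 receptor, by -0.73 (SE 0.048, adjusted p = 1.36e-05).

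Part of the immunoglobulin genes were lower. Of 199 measured variable segments of the heavy and kappa chains, 70 were called lower (2.72% over all genes) and 0 higher, with a median of -0.54 and a lowest change of -4.64. Segments resemble each other in sequence, so their probe sets may share targets. Ighm, the constant region of IgM, was at 8.77, 8.70, 8.35 and 8.26 under the null label, against 11.41, 11.09, 11.45 and 11.34 under the WT label, with no overlap (-2.80, SE 0.13, adjusted p = 1.99e-06). Of 14 measured B cell genes 1, Jchain, was called lower (7.14%, against 2.72% of all genes) and 0 higher. The B cell list averaged 5.93 to 5.97 under the null label and 6.16 to 6.26 under the WT label. The part of B cells in the immunoglobulin signal was not tested. Of the 8 measured Gimap genes, GTPases of lymphocytes, 4 were called lower, against 2.72% of all genes. Gimap6 was at 6.37, 6.55, 6.18 and 6.42 under the null label, against 8.60, 8.20, 8.36 and 8.72 under the WT label (-2.09).

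Stem cell genes were lower, although not all of them. Of 22 measured transcription factors of stem cells, 7 were called lower and 0 higher (median -0.33). Of 25 measured surface and secreted genes, 14 were called lower and 0 higher (median -0.64). The shares called lower were 31.8% and 56%, against 2.72% of all genes. Hlf, a factor of the PAR bZIP family that marks stem cells, was at 6.41, 6.30, 6.24 and 6.30 under the null label, against 8.78, 8.55, 8.51 and 8.64 under the WT label (-2.31, SE 0.067, adjusted p = 2.49e-07). Meis1, a homeobox cofactor of stem cells, was at 7.46, 7.17, 7.13 and 7.09 under the null label, against 9.42, 9.32, 9.25 and 9.33 under the WT label (-2.12, SE 0.082, adjusted p = 9.72e-07). The arrays of each label lay close together in both genes, far from those of the other label. Sox4 changed by -1.17, the ETS factors Etv6 and Erg by -1.10 and -1.05, and Mecom, which stem cells need to persist, by -0.63. The call of Mecom was lost without WT array 1, where its change was -0.53, under the fold minimum.

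On the surface, Cd34, a sialomucin of progenitors, was at 10.15, 9.89, 9.63 and 9.81 under the null label, against 11.44, 11.46, 11.33 and 11.43 under the WT label (-1.54, SE 0.097, adjusted p = 1.15e-05). Adgrg1, an adhesion receptor of stem cells, was at 10.55, 10.46, 10.42 and 10.40 under the null label, against 12.04, 11.94, 12.01 and 12.03 under the WT label (-1.55, SE 0.05, adjusted p = 2.62e-07). Both separated the labels by more than 1 log2 unit on every array. Adgrl4, a related receptor of endothelial and stem cells, changed by -2.58, Myct1, a membrane protein of stem cells and endothelium, by -2.26, and Angpt1, the ligand of the receptor Tie2, by -1.84. Cd48, a marker that the most primitive stem cells lack, was lower as well (-0.82, SE 0.079, adjusted p = 0.000116). Procr, the endothelial protein C receptor that enriches for stem cells, was at -0.36 (SE 0.06, adjusted p = 0.00272), under the fold minimum. Slamf1, the CD150 marker, was at -0.18 (SE 0.19, adjusted p = 0.584). Both are among the 11 surface and secreted genes that were not called. Vwf of that list was higher by the adjusted p alone (0.17, SE 0.045, adjusted p = 0.0292). Flt3, Cd48 and Kit count among the genes of the list called lower, and Flt3 stands in the lymphoid list as well. Meis1, Hlf, Angpt1 and Adgrg1 were marked by the study, so they count as chosen and not as independent evidence of direction.

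**Figure D2:**
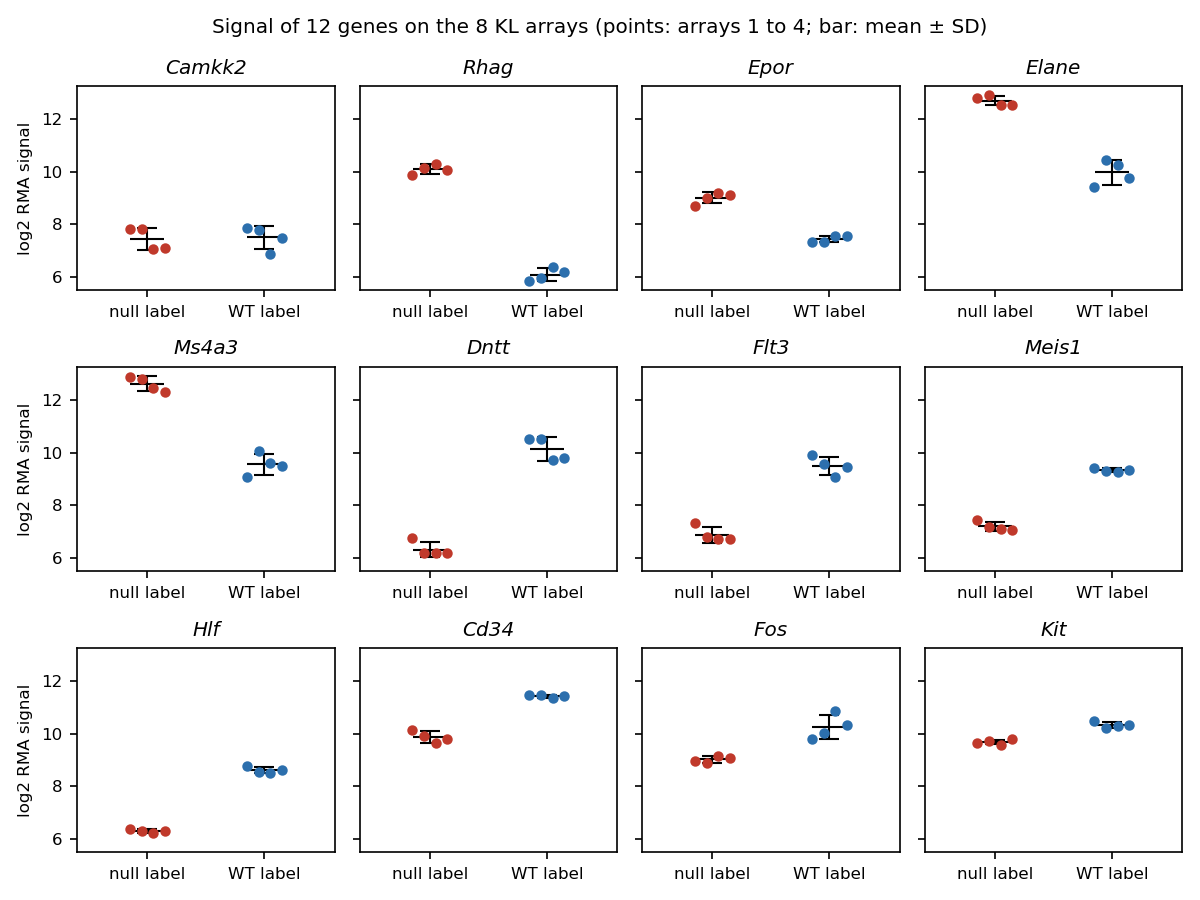
Log2 RMA signal (y axis) of 12 genes on the 8 KL arrays, with arrays 1 to 4 labelled Camkk2 null on the left of each panel and arrays 1 to 4 labelled WT on the right; points are arrays and bars give the mean and SD. The labels overlap for Camkk2 and are apart for the other 11 genes, higher under the null label for Rhag, Epor, Elane and Ms4a3 and lower for the rest.

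Outside the blood lineage lists, some of the largest changes fell on genes of metabolism and signalling. Ces2g, a carboxylesterase, was at 10.80, 11.17, 11.40 and 11.36 under the null label, against 7.59, 7.83, 8.75 and 8.17 under the WT label (3.10, SE 0.23, adjusted p = 2.86e-05). Slc25a21, a mitochondrial carrier, changed by 3.0, and Mt1, a metallothionein that binds zinc, was at 8.91, 9.12, 8.95 and 8.95 under the null label and 6.73, 6.83, 6.90 and 6.59 under the WT label (2.22). Gcnt2, which branches poly-lactosamine chains of the I blood group, was at 7.36, 7.22, 7.08 and 7.15 under the null label, against 10.53, 10.46, 10.35 and 10.21 under the WT label (-3.18, SE 0.083, adjusted p = 2.05e-07). The labels did not overlap in any of these genes. Calcrl, a receptor of adrenomedullin, changed by -2.24, the lysosomal protein Laptm4b by -2.21 and Rgs1, which damps signals of G protein-coupled receptors, by -2.16.

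Antigen presentation by MHC class II was lower, with 9 of 12 measured genes called lower (75%), 1 higher (8.33%) and a median of -0.91. Over all genes 2.72% were called lower and 1.28% higher. H2-Ob, a subunit of the class II chaperone that tempers peptide loading, was at 7.26, 7.06, 7.30 and 7.35 under the null label, against 8.99, 9.27, 9.48 and 9.29 under the WT label (-2.02, SE 0.1, adjusted p = 3.2e-06). H2-Aa, a class II chain, changed by -0.92, the loading chaperone H2-DMb1 by -0.93 and the protease Ctss by -0.98. The gene that was higher was Ifi30, a thiol reductase of lysosomes (0.90, SE 0.14, adjusted p = 0.00161). Dendritic cell genes, which could carry class II transcripts, had 0 of 17 measured genes called in either direction, against 3.99% of all genes. A count of 0 among 17 genes is close to that share. The dendritic cell genes averaged 6.02 to 6.14 under the null label and 6.06 to 6.24 under the WT label. Their part in the class II result was not tested.

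**Figure D3:**
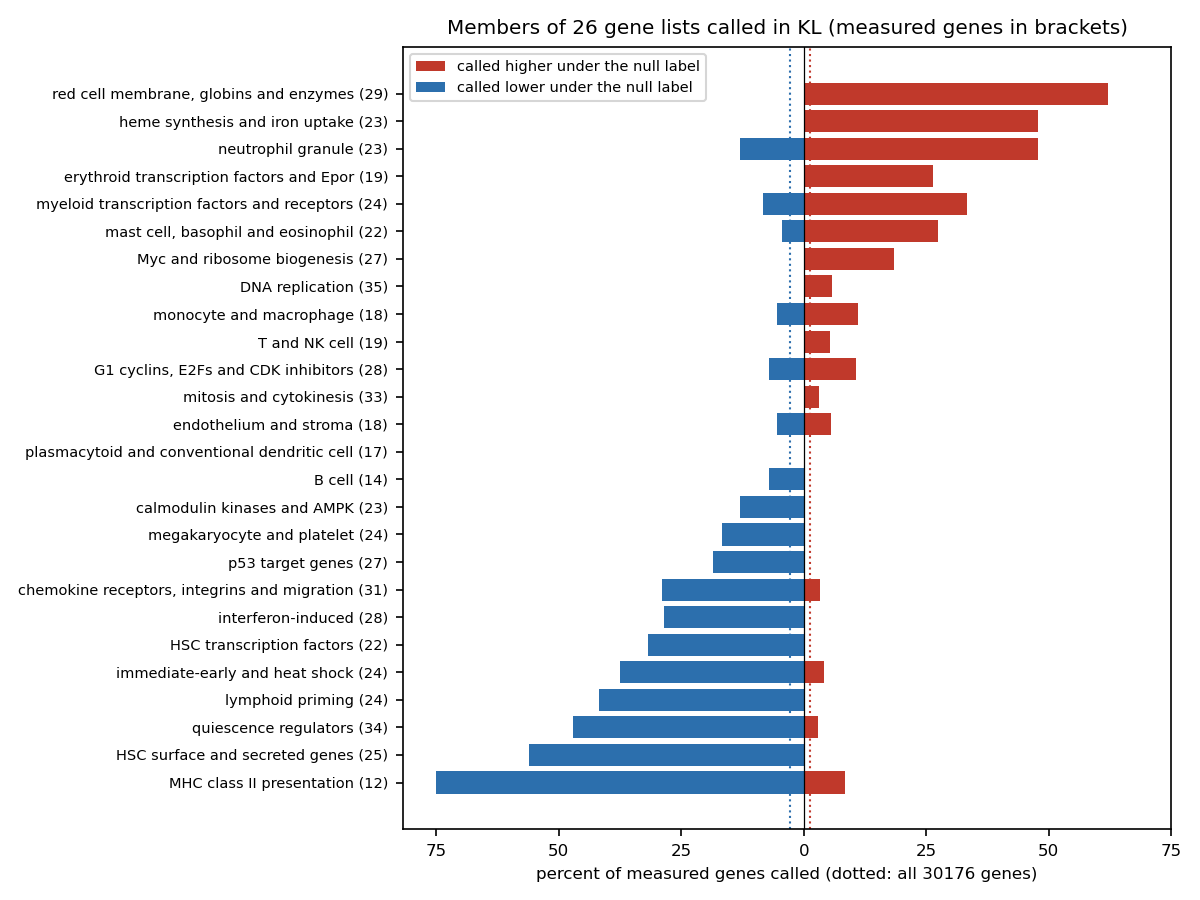
Percent of the measured genes of 26 lists that were called higher (red, to the right) or lower (blue, to the left) in KL under the null label, with dotted lines at the percent over all 30176 genes, 1.28% and 2.72%. The bars run from the red cell list, with 62.1% higher, to MHC class II presentation, with 75% lower.

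Among kinases of the CaMKK2 pathway, 3 of 23 measured calmodulin kinase and AMPK genes were called lower and 0 higher (median -0.10). The share called lower was 13%, against 2.72% of all genes. By the adjusted p alone 8 were lower and 2 higher, against 8.69% and 7.13% of all genes. Camk1, which encodes the CaMKK2 substrate CaMKI, was at 7.62, 7.43, 7.56 and 7.54 under the null label, against 8.13, 8.30, 8.21 and 8.12 under the WT label, without overlap (-0.65, SE 0.059, adjusted p = 8.03e-05). Prkag2, a regulatory subunit of AMPK, changed by -0.85 (SE 0.076, adjusted p = 8.03e-05) and Camk2g, a chain of CaMKII, by -0.83. Prkaa1, the catalytic AMPK subunit that CaMKK2 phosphorylates, was at 0.41 (SE 0.093, adjusted p = 0.0141), under the fold minimum, and Stk11, which encodes the other main AMPK kinase LKB1, at 0.17 (SE 0.09, adjusted p = 0.244). The count of lower genes was 5 without WT array 1 or without null array 2.

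Regulators of quiescence were mostly lower. Of 34 measured genes, 16 were called lower (47.1%, against 2.72% of all genes) and 1 higher (2.94%, against 1.28%), with a median of -0.58. By the adjusted p alone 31 were lower, against 8.69% of all genes. The list includes genes that the study picked from its signature on arrays with the same labels, so the count is not independent evidence. Ndn, a growth suppressor of the MAGE family, was at a low signal of 4.71, 4.84, 4.92 and 4.80 under the null label, against 6.39, 6.90, 7.60 and 7.15 under the WT label (-2.19, SE 0.21, adjusted p = 9.81e-05). Txnip, an inhibitor of thioredoxin, was at 11.20, 11.25, 11.19 and 11.36 under the null label, against 12.44, 12.57, 12.61 and 12.63 under the WT label (-1.31, SE 0.06, adjusted p = 1.99e-06). The WT arrays were spread over more than 1 log2 unit for Ndn and lay close together for Txnip. Smad4 and Tgfbr2, which carry TGF-beta signals, changed by -0.88 and -0.81, the cytokine Il18 by -1.0 and the detoxifying enzyme Gstk1 by -1.26. Ezh1, a histone methyltransferase, was at -0.53 (SE 0.085, adjusted p = 0.0023), under the fold minimum, which it passed without WT array 2 (-0.59). The gene called higher was Rgcc, a regulator of the cell cycle (1.13).

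Cell cycle genes moved by small amounts. Of 35 measured replication genes, 16 were higher at an adjusted p under 0.05 and 0 lower (7.13% and 8.69% over all genes), and 2 also reached the fold minimum. Of 33 genes of mitosis, 15 were higher and 1 lower by the adjusted p, and 1 was called. The median changes were 0.22 and 0.27. Ccne1, cyclin E1 of the entry into S phase, was the exception in size, at 8.75, 9.05, 9.20 and 8.87 under the null label, against 6.76, 7.29, 7.30 and 6.92 under the WT label (1.90, SE 0.14, adjusted p = 2.63e-05). Cdc6, which licenses replication origins, was at 8.83, 8.98, 8.92 and 8.83 under the null label, against 7.95, 8.04, 8.04 and 7.88 under the WT label (0.91, SE 0.057, adjusted p = 1.15e-05). Both were apart on all arrays. Rrm2, a subunit of ribonucleotide reductase, changed by 0.79, the cytokinesis protein Anln by 0.69, and Ccna2, cyclin A2, by 0.42, under the fold minimum. Ccne1, Cdc6, Rrm2, Anln and Ccna2 were marked by the study in KSL under the same labels, so their direction is no independent choice. Mki67, the proliferation marker Ki-67, was at 9.22, 9.19, 9.13 and 9.07 under the null label and 8.68, 8.38, 8.84 and 9.12 under the WT label, where array 4 lay within the range of the null label (0.40, SE 0.13, adjusted p = 0.0736). Among 28 genes of G1 cyclins, E2Fs and inhibitors, 3 were called higher (10.7%, against 1.28% of all genes) and 2 lower (7.14%, against 2.72%). By the adjusted p alone 6 were higher and 9 lower, and the median was -0.06. The genes called lower were Ccnd2, cyclin D2 (-0.66), and Cdkn1a, the inhibitor p21 (-0.68, SE 0.16, adjusted p = 0.0189). The call of Cdkn1a was lost without WT array 2 or null array 3 or 4, with an adjusted p of 0.0526 to 0.0565, and without WT array 3, where its change was -0.54.

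Genes of ribosome biogenesis were higher by small amounts. Of 27 measured genes of this list with Myc, 19 were higher and 1 lower at an adjusted p under 0.05. Over all genes these shares were 7.13% and 8.69%. In the list 5 were called higher (18.5%, against 1.28% of all genes) and 0 lower, and the median was 0.38. Nolc1, a nucleolar phosphoprotein, was at 8.78, 8.59, 8.78 and 8.74 under the null label, against 8.22, 7.81, 7.98 and 7.82 under the WT label (0.76, SE 0.091, adjusted p = 0.000419), and Ncl, nucleolin, changed by 0.71. Nop14 and Dkc1, which act in the making of ribosomal RNA, changed by 0.63 and 0.60, close to the fold minimum. Nop14 was under it without WT array 2 (0.55) or null array 3 (0.57), and Dkc1 without WT array 2, 3 or 4 or null array 1 or 3 (0.56 to 0.58). The count called higher was 2 without WT array 2 or null array 3 and 3 without WT array 4.

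Immediate-early genes, which cells induce within minutes of a stimulus, were listed together with heat shock genes. Of 24 measured genes, 9 were called lower (37.5%, against 2.72% of all genes) and 1 higher (4.17%, against 1.28%), with a median of -0.46. Fos, a subunit of AP-1, was at 8.96, 8.88, 9.15 and 9.09 under the null label, against 9.78, 10.03, 10.84 and 10.32 under the WT label (-1.22, SE 0.19, adjusted p = 0.00185). Dusp2, a phosphatase of MAP kinases, was at 7.38, 7.38, 7.37 and 7.05 under the null label, against 8.53, 8.74, 9.29 and 8.93 under the WT label (-1.58, SE 0.15, adjusted p = 9.47e-05). Nr4a1, an orphan nuclear receptor, was at 7.17, 7.05, 7.57 and 7.38 under the null label, against 8.21, 8.10, 10.16 and 9.15 under the WT label (-1.61, SE 0.39, adjusted p = 0.0195). WT array 3 was the highest in all of these genes, and the labels did not overlap. The call of Nr4a1 was lost without WT array 4 (adjusted p = 0.0538 in limma) or null array 2 (0.0562). Fosb changed by -1.07 and Zfp36, which destabilizes cytokine transcripts, by -1.22, while the gene called higher was the heat shock protein Hsph1 (0.81). The mean of the list was 7.79 to 7.89 under the null label and 8.07 to 8.56 under the WT label.

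Interferon-induced and p53 target genes were lower as well, in part. Of 28 measured interferon-induced genes, 8 were called lower (28.6%, against 2.72% of all genes) and 0 higher (median -0.35). Among the lower genes were the RNA sensor Ddx58 (-0.95), the ISG15 protease Usp18 (-0.88), the GTPase Igtp (-0.86) and Oasl2 (-0.74). Of 27 measured p53 target genes 5 were called lower (18.5%, against 2.72% of all genes) and 0 higher (median -0.11). They were led by Sesn1, a stress-responsive activator of AMPK (-1.35, SE 0.079, adjusted p = 7.24e-06). Its signal was 7.65, 7.71, 7.58 and 7.50 under the null label, against 9.10, 8.89, 8.78 and 9.07 under the WT label. Trp53inp1 changed by -1.05, the antiproliferative gene Btg2 by -1.08 and the kinase Plk2 by -0.88. Cdkn1a and Btg2 stand in other lists as well.

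Genes of migration followed, with 9 of 31 measured chemokine receptor, integrin and migration genes called lower (29%), 1 higher (3.23%) and a median of -0.28. Over all genes 2.72% were called lower and 1.28% higher. F11r, a junctional adhesion molecule, was at 6.29, 6.25, 6.42 and 6.97 under the null label, against 8.15, 8.11, 8.67 and 8.58 under the WT label (-1.89, SE 0.18, adjusted p = 0.000101). Elmo1, which helps activate Rac in migrating cells, changed by -1.28, the G protein subunit Gng11 by -1.23 and Ptprc, the phosphatase CD45, by -0.88. Cxcr4, the CXCL12 receptor by which stem cells stay in the marrow, was at 11.01, 10.82, 10.20 and 10.64 under the null label and 11.56, 11.49, 11.22 and 11.24 under the WT label (-0.70, SE 0.16, adjusted p = 0.0132), and its call was lost without null array 3, where its change was -0.55. The gene called higher was Ccr2, the chemokine receptor of monocytes (1.0, SE 0.19, adjusted p = 0.00566).

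Platelet genes and markers of other cells were examined in the same way. Of 24 measured megakaryocyte and platelet genes, 4 were called lower (16.7%, against 2.72% of all genes) and 0 higher (median -0.13), namely Plek (-1.14), P-selectin Selp (-1.04), Mmrn1 (-0.93) and the ETS factor Fli1 (-0.71). Markers of T and NK cells had 1 of 19 called higher (5.26%, against 1.28% of all genes), granzyme Gzmb (1.29), with a median of 0. Markers of monocytes and macrophages had 3 of 18 called, 2 of them higher (11.1%, against 1.28% of all genes). Those of endothelium and stroma had 2 of 18 called, 5.56% in each direction, against 1.28% higher and 2.72% lower over all genes. The macrophage genes were Ly6c2, the iron exporter Slc40a1 (1.15) and the complement component C1qb (-0.67), which was under the fold minimum without WT array 4 (-0.57). Those of endothelium and stroma were Ly6c1 (0.63), under the fold minimum without null array 2 (0.54), and Pdgfrb (-1.09). The macrophage list averaged 6.36 to 6.51 on arrays labelled null and 6.23 to 6.35 on those labelled WT.

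The changes in KL were then set beside those in KSL between the same labels, to ask where KL differed. KL and KSL arrays may come from the same mice, so the resemblance of their changes is a description. Of the 1205 genes called in KL, 968 were also called in KSL in the same direction, 80.3% of the calls in KL and 63.7% of the 1520 in KSL, and 0 in the opposite direction. A test of the difference between the changes found 0 genes past the thresholds in limma, with a smallest adjusted p of 0.122 and 1867 genes at an unadjusted p under 0.05 (6.19%). The test called 2 genes after quantile normalization of the 16 arrays, Btnl10 (-0.73) and Nfkbia (0.82), and 6 without null array 4 of KL, among them Hdc (0.88). So no call particular to KL was made, including for the 237 genes called in KL and not in KSL.

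Among named genes, the widest gaps between the fractions were those of Prg2 and Nr4a1, and neither passed the test. Prg2 changed by 1.68 in KL and by -0.13 in KSL (difference 1.80, SE 0.74, adjusted p = 0.756). Nr4a1 changed by -1.61 in KL and by -0.27 in KSL (difference -1.34, SE 0.44, adjusted p = 0.632). Ms4a3 and Ly6c2 changed by 3.04 and 3.04 in KL and by 2.01 and 1.92 in KSL, whereas Sox4 changed by -1.17 in KL and -1.99 in KSL. The red cell list had a median change of 0.70 in KL and 1.28 in KSL, and the immediate-early list one of -0.46 in KL and -0.13 in KSL. The KSL arrays of both labels had lower immediate-early means, 7.31 to 7.43 under the null label and 7.52 to 7.77 under the WT label, than the KL arrays of the same label.

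**Figure D4:**
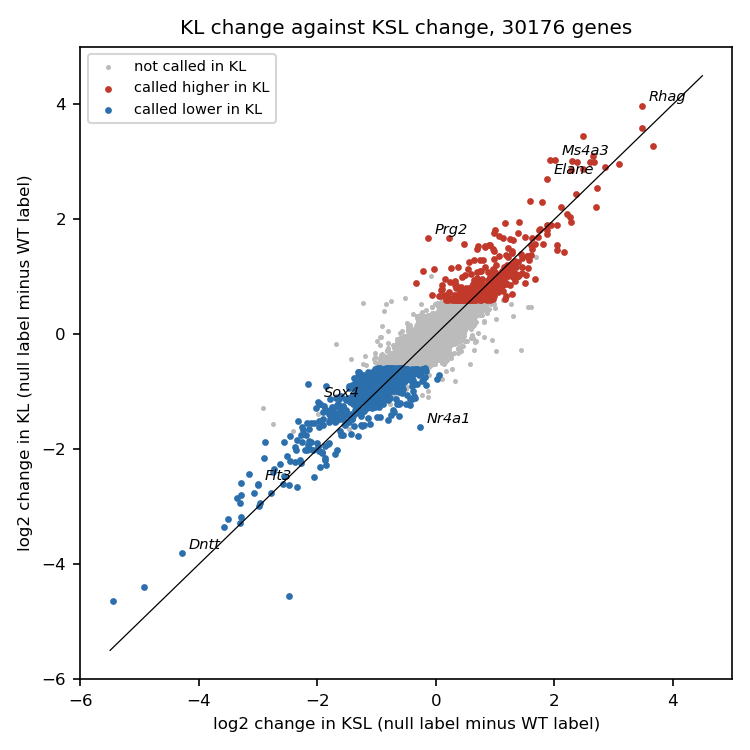
Log2 change between the labels in KL (y axis) against that in KSL (x axis) for 30176 genes, with genes called in KL in colour and a line where both changes are equal. Most called genes lie along the line, and Prg2 (1.68 in KL, -0.13 in KSL) and Nr4a1 (-1.61 and -0.27) lie away from it.

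**Figure D5:**
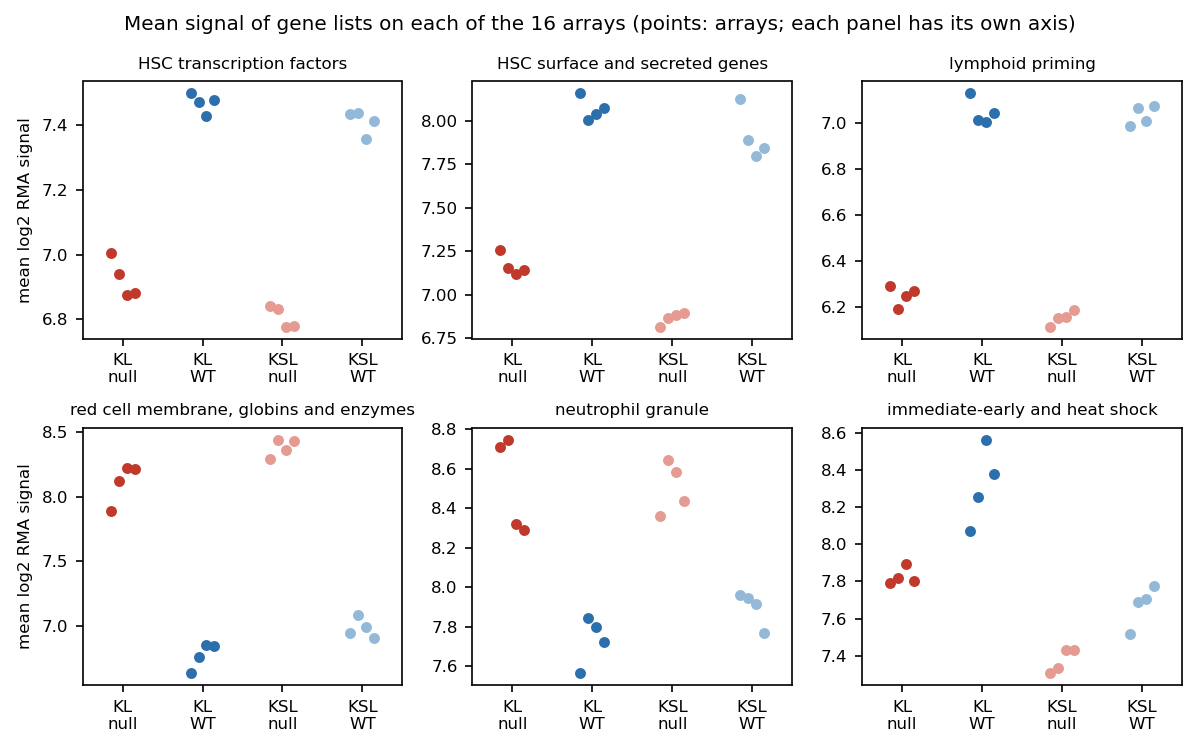
Mean log2 RMA signal (y axis) of 6 gene lists on each of the 16 arrays, grouped as KL labelled null, KL labelled WT, KSL labelled null and KSL labelled WT; each point is an array and each panel has its own axis. The labels are apart within KL in every panel, and red cell genes average 7.89 to 8.22 in KL labelled null and 6.63 to 6.85 in KL labelled WT.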

How the data were processed

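The authors deposited log2 values of 16 arrays, which per the labels' processing notes were made with RMA in Partek 6.6; the options of RMA and the array annotation version are not given in the sources used here. Values of the KL arrays ran from 2.14 to 15.01 with array medians of 5.04 to 5.10, and no pair of arrays was identical. Of 72688 features, 6918 were not transcript clusters, 30638 probe sets named 1 gene and were kept, 2176 named several and 39874 were not listed. The brightest probe set on average stood for each of the 354 genes with several, giving 30176 genes, and dim genes were not filtered.

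R 4.3.3 ran limma 3.58.1 (lmFit, then eBayes with Benjamini-Hochberg adjustment over all genes, two-sided) on the 8 KL arrays for the labels, and on the 16 arrays for KL against KSL changes. Calls needed an adjusted p under 0.05 with a 1.5-fold change or more. The fit was tested on simulated data. The named genes were Camkk2, the 12 called genes with the largest change in each direction whose labels did not overlap (predicted genes, small RNAs and antigen receptor segments passed over), up to 4 called genes a direction in each list, and those marked by the study. Others (Kit, Cd3e, Itgam, Ly6g, Prkaa1, Stk11, Cd34, Cd48, Procr, Slamf1, Ighm, Gimap6, Trem3, Rhd, Kel, Mt1, Mpo, Prtn3, Ctsg, Mki67, Erg, Mecom, Gata2, Fosb, Il7r, Satb1, Mef2c, Il18, Ezh1, Tgfbr2, Smad4, Cxcr4) were added after their values were seen. The lack of overlap was a rule of choice for the 12. Members and lists were chosen with earlier results of these data known, and lists are described by counts and medians without a test. Alternatives covered normalization, filter, probe set choice, variance model, thresholds, the methods' Student test and each array left out.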

Additional observations from a re-analysis of the deposited data

Results flagged for a closer look

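In groups of 4 arrays, a value was examined where its distance from the nearest other array took up most of the range of the group (above Dixon's critical value), and chance alone does so in about 1 group in 20. Of 282 groups of 141 genes, 12 had such an array. In KL labelled null, array 1 stood apart for Dntt (6.76, others 6.19 to 6.20), Flt3 (7.32, others 6.72 to 6.80), H2-Aa (6.46, others 6.21 to 6.24), Ly6g (6.09, others 5.81 to 5.85) and Gata2 (8.30, others 8.14 to 8.16). Array 4 labelled null stood apart for Dusp2 (7.05, others 7.37 to 7.38). In KL labelled WT, array 1 stood apart for Erg (8.18, others 7.90 to 7.92) and Dkc1 (8.77, others 8.40 to 8.45), array 2 for Angpt1 (8.97, others 9.47 to 9.57) and Cd33 (7.74, others 7.31 to 7.38), and array 4 for Prg3 (7.23, others 6.69 to 6.77) and Ddx58 (6.40, others 6.69 to 6.72). The labels of the called genes among these did not overlap with such an array included.

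Probe sets outside the comparison, which name several genes or none, also differed between the labels: 519 of 35297 were called in KL (1.47%), 159 higher and 360 lower under the null label. They are not named here.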

How the results depend on the processing

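Of 140 named genes other than Camkk2, 128 kept their direction and their side of the thresholds under each alternative that kept both thresholds (the level filter covered 132 of them), 10 called genes lost their call under at least 1, Xist and Ezh1 gained one with single arrays left out, and none reversed. Of the 125 called at 1.5-fold, 83 also passed a fold of 2. Without a fold minimum 2151 genes were higher and 2623 lower, and at a fold of 2 there were 129 and 277. Leaving out each array gave 348 to 431 higher and 781 to 880 lower genes. Camkk2 ranged from -0.25 to 0.08 and was above 0 without WT array 1 (0.07) or 2 (0.05) or null array 3 (0.08) or 4 (0.07). Genes whose KL and KSL changes differed numbered 2 after quantile normalization of the 16 arrays, and 0 to 6 with each array left out. The cause of these shifts was not tested, beyond the fold minimum itself. The methods' Student test at their threshold gave 4371 higher and 3674 lower genes, and 1503 and 1848 after Benjamini-Hochberg, both without a fold minimum and chosen after seeing the data. With the 1.5-fold minimum these were 387 and 832, and 347 and 733 after adjustment, where Prg2, Cdkn1a, Nr4a1, Oasl2 and Cxcr4 lost their calls. Besides the ribosome biogenesis and kinase lists given above, short counts in lists moved when single arrays were left out: macrophage genes to 4 higher and 0 or 2 lower, B cell genes to 2 lower, endothelial and stromal genes to 0 higher and 2 lower, platelet genes to 1 higher, G1 genes to 1 lower, and immediate-early and migration genes to 2 higher each.

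With the replicate number as a block, 389 genes were higher and 837 lower. Deviations of arrays with the same number correlated at 0.14, 0.04, 0.24 and -0.01, and null arrays 2 and 4 correlated best with another number (0.06 and 0.13), so the numbers were not taken as pairs, although Camkk2 was higher on arrays 1 and 2 under both labels. On the second principal component of the KL arrays (10.6% of the variance), WT arrays 1 to 4 lay at 14, 13.4, -16.5 and -9.8. Null arrays 1 to 4 lay at 4, 2.1, -8.5 and 1.4. A step between arrays 1 and 2 and arrays 3 and 4 that both labels share was not tested. The block changed no call of a named gene. With 4 arrays a label, the number of arrays limits which small changes could be called.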
